A study of Mus musculus with 6 samples.

Results

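TCF/LEF factors are the DNA-binding proteins at the end of the canonical Wnt pathway. They were examined here together with beta-catenin, their coactivator, and with the Groucho corepressors of the TLE family. The group was fixed as 9 genes: Lef1, Tcf7, Tcf7l1, Tcf7l2, Ctnnb1, Tle1, Tle2, Tle3 and Tle4. A row of the value table was taken where its platform annotation was exactly one of these symbols, and where a gene had several rows the brightest over all arrays was to be kept. This gave 8 genes with 1 transcript cluster each, of 19938 genes with a cluster of their own. The annotation used here paired no cluster with Tcf7, which was therefore not analysed here.

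The arrays compared 3 samples of enterospheres in differentiation with 3 samples in proliferation. Enterospheres are spheroids that form in suspension from dissociated gut muscle of newborns, here C57BL/6 mice of up to 12 hours with no genetic change named, and by the labels each sample pooled 3 mice. All were cultured for 11 days in all, with free-floating spheres picked after 4 days and again after 5 more, when they were divided between the media. The differentiation group spent the last 2 days in medium with ascorbic acid-2-phosphate and without EGF and FGF, while the proliferation group stayed in medium with EGF (10 ng/mL) and FGF (20 ng/mL). The methods of the study give another number of pups, another EGF concentration and another split of the first 9 days. Loss of both growth factors and gain of ascorbic acid-2-phosphate came together and cannot be told apart.

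When Wnt proteins bind their receptors, beta-catenin escapes a destruction complex, accumulates and enters the nucleus, where it binds TCF/LEF proteins and turns their target genes on. Without beta-catenin the same factors hold Groucho proteins and keep those genes repressed. Of the family, Lef1 and Tcf7 mostly act as activators, Tcf7l1 mostly as a repressor, and Tcf7l2 as either. Beta-catenin is controlled mainly through its stability, which an mRNA measurement does not show. In the gut wall the pathway acts in epithelial stem cells, in mesenchyme and in neural crest derivatives.

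Several of these genes are transcribed from more than 1 start, and starts further into a gene can give proteins that lack the beta-catenin binding end. RefSeq sequences of assembly GRCm38.p6 gave 16 windows of 300 bases around the starts of the 9 genes, each from 250 bases before to 50 bases after a start. Lef1 had 4 windows and Tcf7l2 had 2. The TCF/LEF recognition motif, written as CTTTG followed by AA, AT, TA or TT and searched on both strands, was found in 2 of the 16 windows (12.5%), against 16.9% of all 32851 windows of the same length. These spellings cannot overlap each other on the same strand. The 2 shares are not like for like, since the members' windows had a median GC content of 67.3%, against 52.7% over all windows. The windows with a match had 43.7% in Lef1 and 42.0% in Tcf7l2, and some windows of the same gene overlap. The matches lay at the start furthest into the gene in Lef1 and in Tcf7l2, 147 and 14 bases before it. They are shown because these were the only matches among the members, with the motif in capitals and no base after the start. The Lef1 stretch lies at chr3:131156117-131156183 and the Tcf7l2 stretch at chr19:55895277-55895320, both on the plus strand.
Lef1: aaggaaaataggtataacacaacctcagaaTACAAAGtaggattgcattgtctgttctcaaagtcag
Tcf7l2: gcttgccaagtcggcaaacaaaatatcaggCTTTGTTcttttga
The match in Lef1 is CTTTG followed by TA when read on the other strand. Each transcript cluster gives a single value for its gene, so transcripts from the different starts were not separated.

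Values are log2 intensities after RMA normalization by the authors, and a difference of 1 is a 2-fold change. The median transcript cluster had a mean of 6.15. The groups were compared with limma as differentiation minus proliferation, and a gene rose or fell where the adjusted p over all 35556 clusters was under 0.05. Arrays correlated at 0.988 to 0.995 within groups and at 0.983 to 0.989 across them. Each group holds 3 arrays. By the study's methods the arrays came from independent experiments, each on pups of a single litter, and by the labels the spheres were divided between the media, but neither source says which arrays shared an experiment. Of 14 markers of enteric neural crest and glia, 11 were measured and all 11 lay above the median cluster, 4 of them higher and 1 lower in differentiation (list means of 10.71 to 10.78 per array in differentiation and 10.28 to 10.48 in proliferation). Markers of dividing cells were lower in differentiation in 8 of 8, with list means of 7.36 to 7.56 per array in differentiation and 9.18 to 9.99 in proliferation. Smooth muscle markers rose in 4 of 6 measured (list means of 7.49 to 7.64 in differentiation and 6.75 to 6.78 in proliferation). All 6 fibroblast markers lay above the median cluster and 0 passed the test (list means of 10.83 to 10.93 in differentiation and 10.44 to 11.08 in proliferation). Markers of myelinating oligodendrocytes rose in 4 of 9 (8.96 to 9.09 in differentiation and 7.82 to 7.83 in proliferation). Of these 9, named here in full, Opalin, Mbp, Cnp and Olig1 rose, while Mog, Mag, Myrf, Sox10 and Olig2 did not pass. Opalin had by far the largest log2 fold change, 5.17 to 5.41 with an array left out, and weighs heavily in the list mean. Sox10 is also among the markers of neural crest and glia. Of 4 markers of interstitial cells of Cajal 1 fell (9.99 to 10.17 in differentiation and 10.50 to 10.96 in proliferation). Of all genes 2.94% rose and 2.97% fell. The part of these cell markers in the members' changes was not tested. In bulk samples fewer cells of a type and less RNA per cell cannot be told apart.

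Of the 8 members measured, Lef1 and Tcf7l1 fell, Tle3 rose and 5 did not pass the test. Over all genes 2.97% fell and 2.94% rose, 5.91% together, and of all transcript clusters 4.1% changed. The arrays of the groups did not overlap in 5 of the 8 members, 4 lower and 1 higher in differentiation, against 27.5% of all genes. The members were chosen with earlier results of these arrays known, and the study itself names some of them from these samples, so their count is no independent evidence.

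**Figure D1:**
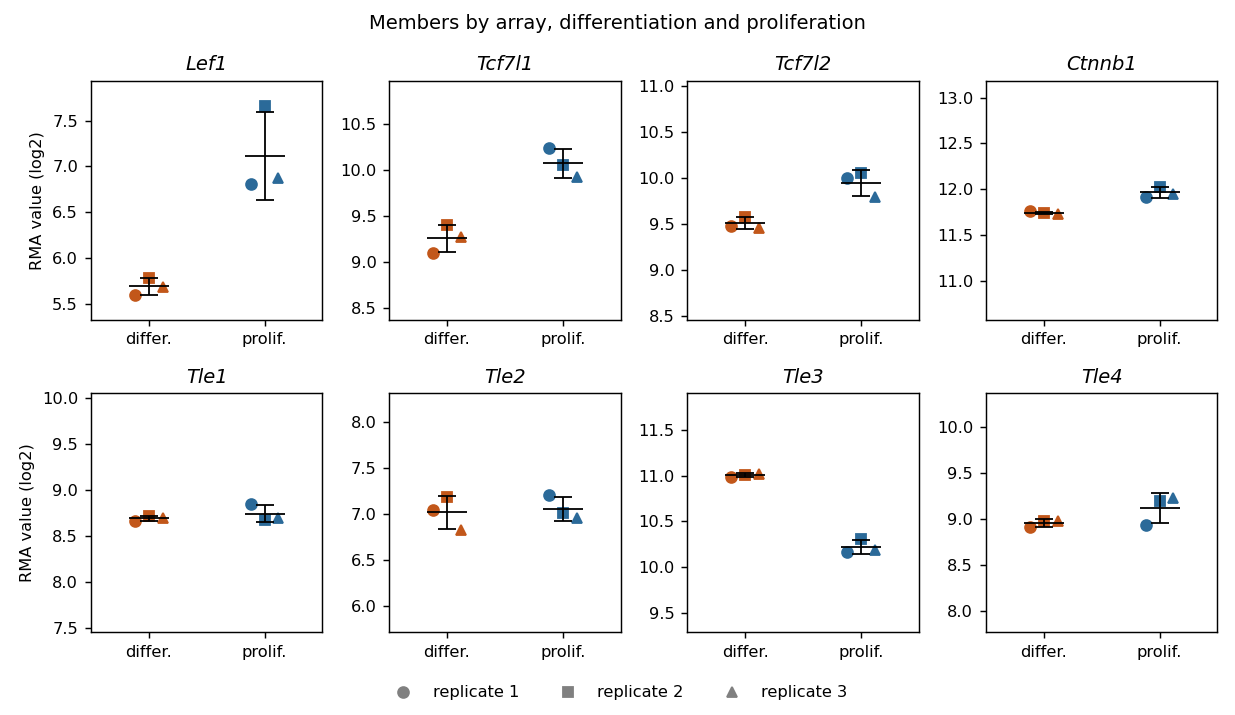
RMA values on the log2 scale (vertical axes, each spanning 2.6 units) of the 8 members measured, with 3 differentiation arrays (orange) left of 3 proliferation arrays (blue) in each panel. Symbols mark replicate numbers, horizontal bars the group means and whiskers the SD. Lef1, Tcf7l1, Tcf7l2 and Ctnnb1 lie lower in all 3 differentiation arrays and Tle3 lies higher, while Tle1, Tle2 and Tle4 overlap.

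Lef1 (transcript cluster 10496091, chromosome 3) encodes lymphoid enhancer-binding factor 1, an activator that is itself a Wnt target in many tissues, and it had the largest decrease of the members. It was 5.60, 5.79 and 5.69 in the differentiation arrays, against 6.81, 7.66 and 6.87 in the proliferation arrays. Every differentiation value lay below every proliferation value, by at least 1.02, and proliferation replicate 2 stood above the other 2 of its group. Lef1 fell 2.68-fold, by a log2 fold change of -1.42 (standard error 0.227, 95% interval -1.96 to -0.88, limma adjusted p = 0.0203). Its mean in differentiation (5.69 ± 0.0976, SD, n = 3) lay below the median cluster while that in proliferation (7.11 ± 0.48) lay above it, and without a detection call the exact fold at this level is uncertain. Proliferation replicate 2 also had the highest mean of the dividing-cell markers, 9.99, against 9.18 and 9.51 in the other proliferation arrays. Lymphocytes are a well-known source of Lef1, and 0 of their 8 measured markers reached the median cluster (list means of 4.64 to 4.94 in differentiation and 4.66 to 4.89 in proliferation). Which cells gave the Lef1 signal was not tested. The call of Lef1 was lost without differentiation replicate 1 (adjusted p = 0.104), 2 (0.0663) or 3 (0.0641) or without proliferation replicate 3 (0.06), with log2 fold changes between -1.57 and -1.15 in all 6 such fits.

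Tcf7l1 (transcript cluster 10545458, chromosome 6), the member of the family best known as a repressor that guards stem and progenitor states, also fell. The differentiation arrays gave 9.10, 9.40 and 9.27, and the proliferation arrays gave 10.24, 10.06 and 9.92. No values overlapped, with a gap of 0.53, and the SD was 0.149 in differentiation and 0.159 in proliferation. The decrease was 1.76-fold, a log2 fold change of -0.82 (standard error 0.12, 95% interval -1.10 to -0.53, limma adjusted p = 0.0155). Tcf7l1 did not pass without differentiation replicate 1 (adjusted p = 0.0788) or 3 (adjusted p = 0.05004), nor with the replicate number as a block (adjusted p = 0.0697).

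Tcf7l2 (transcript cluster 10464084, chromosome 19) is the TCF factor of intestinal epithelium and of maturing oligodendrocytes and can activate or repress. It had values of 9.48, 9.58 and 9.46 in differentiation and of 10.00, 10.05 and 9.79 in proliferation. The groups did not overlap, but the gap was only 0.21. Its log2 fold change of -0.44 (standard error 0.0982, 95% interval -0.68 to -0.21) did not pass the test (limma adjusted p = 0.063), and it sat near the threshold. It passed when each array was centred on its median (adjusted p = 0.0473), with limma-trend (0.0324) and when dim or unnamed clusters were left out of the adjustment (0.0262 and 0.0245). The threshold was missed after cyclic loess (adjusted p = 0.0575), with the replicate number as a block (0.119) or with any array left out (0.0834 to 0.244). Epithelial markers, 6 measured, had list means of 5.32 to 5.59 in differentiation and 5.31 to 5.57 in proliferation, and 1 of them reached the median cluster. Which cells gave the Tcf7l2 signal was not tested.

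Ctnnb1 (transcript cluster 10590325, chromosome 9), which encodes beta-catenin, varied little and did not pass the test. It was 11.76, 11.74 and 11.73 in differentiation, and 11.92, 12.03 and 11.95 in proliferation. All differentiation values were lower, although by 0.16 at the closest pair. The log2 fold change of -0.22 (standard error 0.0759, 95% interval -0.40 to -0.04) did not pass the test over all clusters (limma adjusted p = 0.208). The interval, which is not adjusted for the number of clusters, reaches no further than -0.40, so a decrease of the size seen in Tcf7l1 lies outside it.

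Tle3 (transcript cluster 10586039, chromosome 9), a Groucho corepressor that binds TCF/LEF proteins and recruits histone deacetylases, was the only member that rose. It had values of 10.98, 11.01 and 11.02 in the differentiation arrays, and of 10.17, 10.31 and 10.19 in the proliferation arrays. The groups were 0.67 apart at the closest pair, with an SD of 0.0163 in differentiation and 0.0771 in proliferation. Tle3 rose 1.71-fold, a log2 fold change of 0.78 (standard error 0.0792, 95% interval 0.59 to 0.97, limma adjusted p = 0.00564). It was the only member that passed with each of the 6 arrays left out in turn, with log2 fold changes of 0.75 to 0.82 and adjusted p from 0.01 to 0.0435.

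The other TLE genes encode full-length relatives of Tle3 with the same kind of repressor domains. Tle1 (transcript cluster 10513884, chromosome 4) was 8.66, 8.72 and 8.70 in differentiation and 8.85, 8.68 and 8.70 in proliferation. Tle4 (transcript cluster 10466374, chromosome 19) was 8.91, 8.98 and 8.98 in differentiation and 8.94, 9.20 and 9.23 in proliferation. In both the groups overlapped, with log2 fold changes of -0.05 (95% interval -0.25 to 0.15, adjusted p = 0.838) and -0.17 (-0.41 to 0.08, limma adjusted p = 0.516). Tle2 (transcript cluster 10365145, chromosome 10) had 7.04, 7.18 and 6.82 in differentiation and 7.20, 7.01 and 6.95 in proliferation. Its groups overlapped as well, and the log2 fold change of -0.04 (95% interval -0.33 to 0.25, adjusted p = 0.921) had no settled sign, being 0.06 without differentiation replicate 3. The intervals of Tle1, Tle2 and Tle4 all end below the 0.59 at which that of Tle3 begins. Tle2 stands beside Tle5 on chromosome 10 and its annotated span overlaps that of Tle6, so probes in a shared stretch could report either gene. Tle5, a short family member without the WD40 repeats that can counteract the others, and Tle6 did not pass, at 0.02 (adjusted p = 0.934) for Tle5 and -0.06 (adjusted p = 0.766) for Tle6 on the log2 scale, and were chosen after their values were seen.

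**Figure D2:**
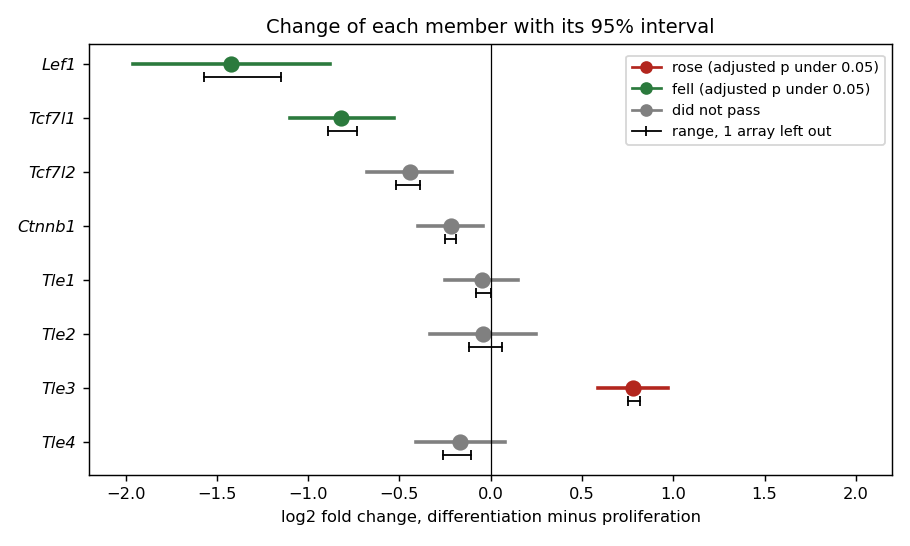
Log2 fold change of each member, differentiation minus proliferation (horizontal axis), as a point with its 95% interval from limma, 3 arrays per group. Black brackets give the range with each array left out in turn, red marks the gene that rose, green those that fell and grey those that did not pass. The estimates run from -1.42 for Lef1 to 0.78 for Tle3.

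Whether the members differed from each other in their change was tested within arrays, where the difference of 2 genes on the same array was compared between the groups. This was done for the 3 pairs of TCF/LEF genes and the 6 pairs of TLE genes with a two-sided exact permutation test, which cannot give a p under 0.1 with 3 arrays against 3. The within-array differences did not overlap between the groups in 6 of the 9 pairs (exact permutation p = 0.1, 0.15 after Benjamini-Hochberg adjustment over the 9), against 31.0% of all pairs of genes. Tcf7l1 minus Tcf7l2 was between -0.38 and -0.18 in differentiation and between 0.01 and 0.24 in proliferation. The sign thus differed between the groups on every array, although levels of different genes are not comparable on an array and only the shift of -0.38 (95% interval -0.63 to -0.12) has meaning. Lef1 changed by -0.98 (-1.65 to -0.31) relative to Tcf7l2 and by -0.61 (-1.45 to 0.24) relative to Tcf7l1, and the last interval holds 0. The differences between Tle3 and each other TLE gene did not overlap between the groups. These pairs all hold Tle3, so they are not independent of each other or of its own increase. Relative to Tle4, Tle3 shifted by 0.94 (95% interval 0.73 to 1.16), with within-array differences of 2.02 to 2.07 in differentiation and 0.97 to 1.23 in proliferation. The intervals of the shifts rest on the pooled SD and a t distribution, not on the permutation test. Tle1 and Tle2 shifted by -0.83 (-1.08 to -0.58) and -0.82 (-1.24 to -0.40) relative to Tle3. Among Tle1, Tle2 and Tle4 the differences overlapped in all 3 pairs, with shifts of -0.01, 0.12 and 0.13 and intervals that reached from -0.43 to 0.68.

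For each member that passed the test, the genes with the most similar profile were sought among all genes by the root mean square difference after centring each gene on its mean over the 6 arrays. Lef1 was closest to Ncapg2, a subunit of condensin II, to Chaf1b, which assembles chromatin behind the replication fork, and to Mastl, a kinase of mitotic entry, at distances of 0.0805, 0.0892 and 0.0937 on the log2 scale (Pearson r = 0.994, 0.997 and 0.994 over 6 arrays). Each of these had its highest value in proliferation replicate 2, as Lef1 did, which follows from their choice by likeness to Lef1 on these arrays. Tcf7l1 was closest to Smtn, a protein of smooth muscle actin filaments, to Cryz, a quinone reductase, and to Gpc6, a cell-surface proteoglycan, at 0.0386, 0.0713 and 0.0755 (r = 0.996, 0.986 and 0.984). Smtn fell, by a log2 fold change of -0.83 (limma adjusted p = 0.0142), whereas 4 of the 6 smooth muscle markers rose and 0 fell. Closest to Tle3 were Gamt, an enzyme of creatine synthesis, Plxnb3, a semaphorin receptor, and Fam241a, at 0.0407, 0.0459 and 0.0525 (r = 0.995, 0.994 and 0.994). These values describe the 6 arrays, share the difference between the groups, and were the best of all 19938 genes.

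**Figure D3:**
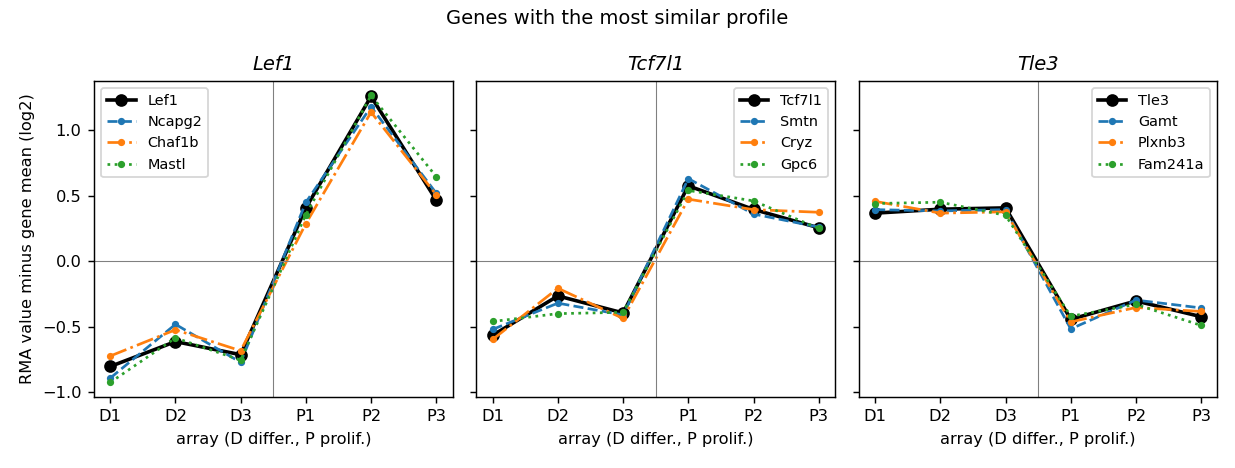
RMA values of Lef1, Tcf7l1 and Tle3 (black) and of the 3 genes closest to each, after subtracting each gene's own mean (vertical axis, log2), over the 3 differentiation arrays (D1 to D3) and the 3 proliferation arrays (P1 to P3). Lines only join the points of a gene. Lef1 and its neighbours all peak at P2, the profile of Tcf7l1 lies lower in D1 to D3, and that of Tle3 lies higher there.

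Among 16 coactivators of beta-catenin, all measured, 1 rose and 15 did not pass, where 2.94% of all genes rose. The median log2 fold change of the coactivators was -0.03, against a median of 0.025 over all genes. The increase was that of Tnik, a kinase that binds and phosphorylates Tcf7l2, with values of 9.87, 10.01 and 9.78 in differentiation and 9.22, 8.88 and 9.33 in proliferation, a log2 fold change of 0.75 (limma adjusted p = 0.0311). Tnik passed in 1 of 6 fits with an array left out (adjusted p up to 0.133). The adaptors that link beta-catenin to chromatin did not pass, Bcl9 at a log2 fold change of -0.01 (adjusted p = 0.988) and Pygo1 at 0.26 (adjusted p = 0.191), both chosen after their values were seen.

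Of 16 nuclear antagonists, all measured, 1 fell, none rose and 15 did not pass (median -0.13), where 2.97% of all genes fell. In 7 of them every differentiation array lay below every proliferation array and in 0 above, where 12.9% and 14.6% of all genes did so. Ctbp2, a corepressor that can join TCF proteins, fell to 9.94, 10.10 and 9.97 in differentiation, against 10.53, 10.35 and 10.44 in proliferation, a log2 fold change of -0.44 (adjusted p = 0.0478). It was not past the test in any of the 6 fits with an array left out (adjusted p from 0.0657 to 0.217). Hic1, a repressor that can draw Tcf7l2 away from its targets, had the largest log2 fold change of the list, -0.79, and did not pass (adjusted p = 0.0871). It was 9.11, 9.22 and 9.04 in differentiation and 10.27, 9.48 and 10.00 in proliferation, without overlap, and of the 6 fits with an array left out it passed in that without proliferation replicate 2 (adjusted p = 0.0145). Ctnnbip1, which blocks the binding of beta-catenin to TCF proteins, had a log2 fold change of -0.37 (adjusted p = 0.1705), and it and Hic1 were chosen after their values were seen.

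In the complex that marks beta-catenin for destruction and its regulators, 2 of 20 genes rose and 18 did not pass (median 0.03). Of all genes 2.94% rose. Axin2, a scaffold of the complex and a direct TCF/LEF target, was 8.14, 8.24 and 7.96 in differentiation and 7.49, 7.13 and 7.31 in proliferation. Its log2 fold change was 0.80 (standard error 0.123, limma adjusted p = 0.0177). Apc, the scaffold that holds beta-catenin, rose by a log2 fold change of 0.39 (adjusted p = 0.0485). The call of Axin2 was lost without differentiation replicate 1 or 2 or proliferation replicate 3 (adjusted p from 0.0669 to 0.0976), and that of Apc with any array left out (0.0551 to 0.22). With the replicate number as a block 0 genes passed in each of the lists of coactivators, antagonists and destruction complex.

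Direct targets of TCF/LEF proteins went both ways. Where 2.94% of all genes rose and 2.97% fell, 4 of 22 targets, all measured, rose, 1 fell and 17 did not pass (median 0.09). Those that rose were Tnfrsf19, a receptor of the TNF family, by a log2 fold change of 2.04 (adjusted p = 0.00486), Nkd1, a feedback inhibitor that binds Dishevelled, with 1.69 (adjusted p = 0.00244), Notum, an enzyme that inactivates Wnt proteins, with 1.40 (adjusted p = 0.00425), and Axin2. Nkd1 was 9.08, 8.99 and 8.99 in differentiation against 7.10, 7.44 and 7.46 in proliferation. Ccnd1, a cyclin that drives cells through G1, was the single target of this list that fell, by a log2 fold change of -1.31 (adjusted p = 0.00578). Lef1, itself a Wnt target in many tissues, was counted among the members and not in this list. It fell too, by a log2 fold change of -1.42 (limma adjusted p = 0.0203). Tnfrsf19, Nkd1, Notum and Ccnd1 passed with each array left out. Myc, at 0.15 (adjusted p = 0.603), and Lgr5, at -0.21 (adjusted p = 0.449), did not pass, and both were chosen after their values were seen.

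Groucho proteins bind no DNA themselves and are brought to genes by other factors too. Of 26 such factors 24 were measured. By limma 0 passed the test (median 0.11), and 4 had an unadjusted p under 0.05, against 19.1% of all genes. In 7 every differentiation array lay above every proliferation array and in 0 below, where 14.6% and 12.9% of all genes did so. With the methods' t-test at its thresholds 0 passed, where 1129 of all 19938 genes did. In 3 limma settings 1 was higher, namely with clusters of 1 symbol alone, with averaged clusters and without proliferation replicate 2. Of all genes 1857, 1889 and 1007 changed in these settings. With array weights 11 were higher and 3 lower, where 7570 of all genes changed. Those weights were largest for differentiation replicate 1 (7.45) and proliferation replicate 3 (3.62), against at most 0.491 elsewhere. The factors that recruit Groucho proteins include the Hes and Hey repressors of the Notch pathway, the Runx factors and Foxd3 of the neural crest. Hes1, chosen after its values were seen, had a log2 fold change of -0.21 (adjusted p = 0.441).

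**Figure D4:**
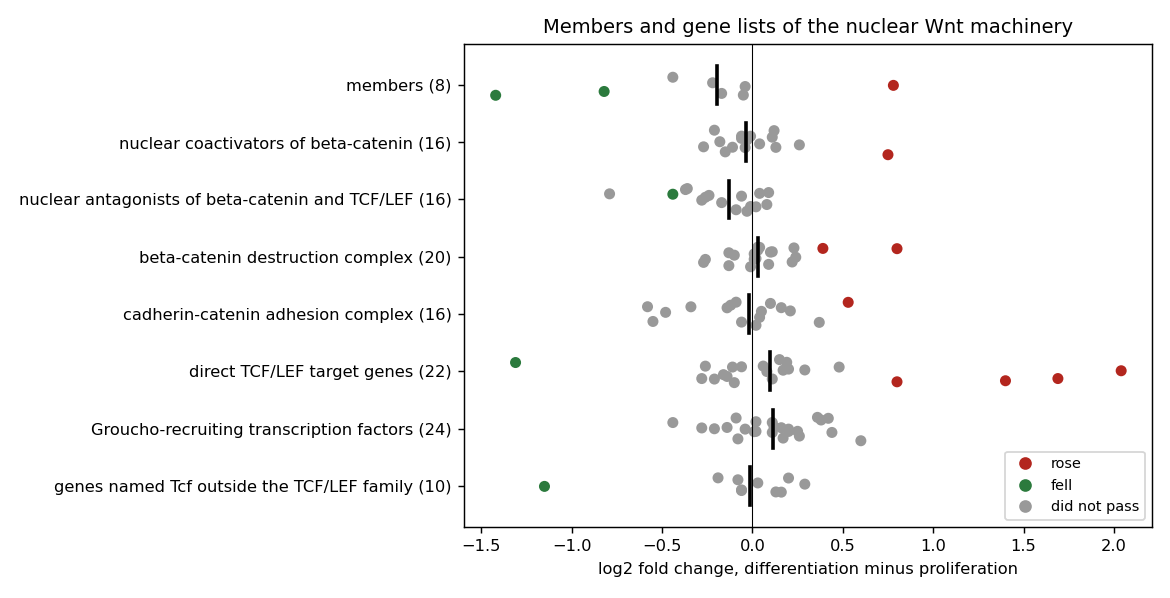
Log2 fold change, differentiation minus proliferation (horizontal axis), for every gene among the members and in 7 lists (vertical axis, with the number measured in brackets). Genes that rose are red, those that fell green and the others grey (limma, adjusted p under 0.05, n = 3 per group), with medians as black bars, and the height of a point within its row has no meaning. The members reach from -1.42 to 0.78, and the list medians run from -0.13 for the antagonists to 0.11 for the factors that recruit Groucho proteins.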

How the data were processed

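RNA of 6 enterosphere samples was hybridised by the authors to Affymetrix arrays (Mouse Gene 1.0 ST), scanned with AGCC 3.0, checked with Expression Console 1.0 and normalized with RMA in Partek Software 6.6. The deposited values are log2 intensities per transcript cluster. For the probe annotation, build and version are not given in the sources used. RMA as usually run equalises the distributions of the arrays and would hide a shift of most genes in common. Array values carry no counts, and precision rests on 3 arrays per group.

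Gene symbols were read from GEO's platform table. Of the 35556 clusters 21789 carried 1 symbol, 1621 several and 12146 none here, and 999 genes had several clusters, of which the brightest was used. Entrez identifiers of 21698 clusters matched a gene table of GRCm38.p6, used for names, chromosomes and neighbours. The comparison used lmFit and eBayes of limma 3.58.1 in R 4.3.3, two-sided, without a filter, and p-values were adjusted over all clusters by Benjamini-Hochberg. The prior had 2.83 degrees of freedom. Intervals are at 95% and unadjusted. Motifs, gene pairs and plots were made in Python 3.11.15 with pandas 2.3.3, numpy 2.4.6 and matplotlib 3.10.9. The limma comparison was tested on simulated data and the motif search on short test strings. The other steps were not tested in this way.

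The members and lists were chosen with earlier results of these data known. Named were all members, up to 4 genes past the test in each list, and for each member past the test the 3 genes of most similar profile. Other named genes are marked. The alternatives comprised cyclic loess, centring on array medians, robust limma-trend, a block on replicate number, leaving out clusters dimmer than the median, leaving out clusters without exactly 1 symbol, array weights, averaging a gene's clusters, the methods' t-test at its thresholds (unadjusted p under 0.05 and at least 1.5-fold) and after Benjamini-Hochberg adjustment, and leaving out each array in turn.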

Additional observations from a re-analysis of the deposited data

How the results depend on the processing

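Tle3 rose past the threshold under every alternative run. The number of members that fell, 2 by default, was 1 with the replicate number as a block (where 664 clusters changed, against 1459), 5 with array weights (12721 clusters, weights of 0.397 to 7.45 resting largely on differentiation replicate 1) 3 with limma-trend, array centring, brighter clusters alone, clusters of 1 symbol alone and averaged clusters (Tcf7l2 added), and 0 with the methods' t-test once adjusted by Benjamini-Hochberg (253 clusters). When a gene's clusters were averaged 1889 genes changed, against 1179. Leaving out each array gave 294 to 1297 changed clusters and 0 to 2 members that fell. The 0 members that fell arose without differentiation replicate 1 or 3. The call of Tcf7l1 was lost with the block (adjusted p = 0.0697), and that of Lef1 was kept. Array weights also called Ctnnb1 and Tle4 lower. Of the genes in the 7 lists 10 passed by default, 5 with the replicate block, 16 with clusters of 1 symbol alone and 52 with array weights. Of all 19938 genes 1179, 545, 1857 and 7570 passed in these settings. Among the list genes 17 passed with the mean of all clusters, 4 with the adjusted t-test of the methods and 4 to 11 with an array left out. Of all genes 1889, 211 and 257 to 1009 did so. The list counts thus largely followed the number of all genes called and are no result about the lists. The sign of Tle1 turned without proliferation replicate 1 (range -0.08 to 0.00), and that of Tle2 with array weights (0.06) and without differentiation replicate 3 (0.06) or proliferation replicate 1 (0.04), within a range of -0.12 to 0.06 with an array left out. Tle1 minus Tle2 was 0.01 after cyclic loess and between -0.11 and 0.06 with an array left out. The cause of these differences was not tested. Centring on array medians moved the median of all genes by under 0.1, to -0.01, and the split of calls was then 611 higher and 851 lower, against 693 and 766. Whether replicate numbers mark experiments is not stated, and the arrays gave no sign that numbers pair the samples: deviations of same-numbered arrays from their group means correlated at -0.003, 0.09 and -0.074, and 1 of 6 arrays correlated best with its own number.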

Other observations

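Other genes carry the name Tcf without belonging to the TCF/LEF family, because the name was given to several kinds of transcription factor. All 10 such genes were measured, and by limma 1 fell and 9 did not pass (median log2 fold change -0.02). Of all genes 2.97% fell. Tcf19, a protein with a forkhead-associated domain, was 7.84, 8.08 and 8.13 in differentiation and 8.99, 9.43 and 9.08 in proliferation, lower by a log2 fold change of -1.15 (adjusted p = 0.00916, standard error 0.143). It did not pass without differentiation replicate 1 (adjusted p = 0.0554). Tcf3, an E protein whose symbol was also an older name of Tcf7l1, did not pass (log2 fold change -0.08, adjusted p = 0.73), and it was chosen after its value was seen.

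Beta-catenin also joins cadherins to the cytoskeleton. Of 16 genes of that adhesion complex 1 rose and 15 did not pass (median -0.02), where 2.94% of all genes rose. The increase was that of Ctnna1, the alpha-catenin that links beta-catenin to actin, with values of 11.32, 11.37 and 11.37 in differentiation and 10.83, 10.81 and 10.83 in proliferation. Its log2 fold change was 0.53 (standard error 0.0726, limma adjusted p = 0.0124), and the call was lost without differentiation replicate 1 or 2 or proliferation replicate 3 (adjusted p from 0.051 to 0.073) and with the replicate number as a block. Jup, the plakoglobin that resembles beta-catenin, was 9.92, 9.94 and 10.09 in differentiation and 10.87, 10.28 and 10.53 in proliferation and did not pass (log2 fold change -0.58, adjusted p = 0.106). It was chosen after its values were seen.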
